A study of Homo sapiens with 6 samples.

Results

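The C/EBP family genes described here are CEBPA, CEBPB, CEBPD, CEBPG and CEBPZ, chosen by gene name from the deposited expression table: 5 genes of the 57819 listed. Of them, 4 reached the minimum of 10 normalized reads on average and so were among the 19048 genes tested. CEBPA had no reads. RNA came from IMR90 ER:Ras cells, human lung fibroblasts with a Ras oncoprotein joined to the ligand-binding part of the estrogen receptor. All 6 libraries came from cells treated with 200 nM 4-hydroxytamoxifen (4OHT), which switches that Ras on, and the stated treatment time was 3 days. The control group received a scrambled siRNA (siSCR, n = 3 libraries) and the knockdown group an siRNA against the senescence-induced long noncoding RNA sin-lncRNA (n = 3 libraries). The labels do not say that the libraries of a group came from separate cultures, so p-values measure the spread between these samples, which may be technical. There was no group without 4OHT, so all comparisons are within 4OHT-treated cells and between the siRNAs. Whether these cells were senescent at 3 days was not tested.

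C/EBP proteins are basic leucine zipper (bZIP) transcription factors that bind DNA as pairs, with each other or with related factors of the ATF and AP-1 groups. C/EBP beta, the product of CEBPB, is known to drive secretory genes in Ras-induced senescence, and sin-lncRNA has been described as a gene that C/EBP beta switches on. CEBPZ shares the name because its protein was found through CCAAT-box DNA, but it is no bZIP factor: its yeast relative Noc1 acts in the assembly of the large ribosomal subunit. The comparison asks whether depletion of sin-lncRNA changes the RNA of the family itself.

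Of the 4 tested members, CEBPG rose in the knockdown and the other 3 were not called. That is 1 of 4 members, against 41% of all genes tested (limma, Benjamini-Hochberg adjusted p under 0.05), and 17.5% of all genes tested were called higher. CEBPG rose 1.25-fold. CEBPB, CEBPD and CEBPZ had estimates of 0.941-fold, 0.925-fold and 1.01-fold, and the libraries of the groups overlapped for each of them. The knockdown groups lay wholly apart from the controls for 1 of the 4 members, against 51.1% of all genes tested, of which 22.8% had the knockdown higher and 28.3% the knockdown lower. The plot of RPM by library shows these levels.

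**Figure D1:**
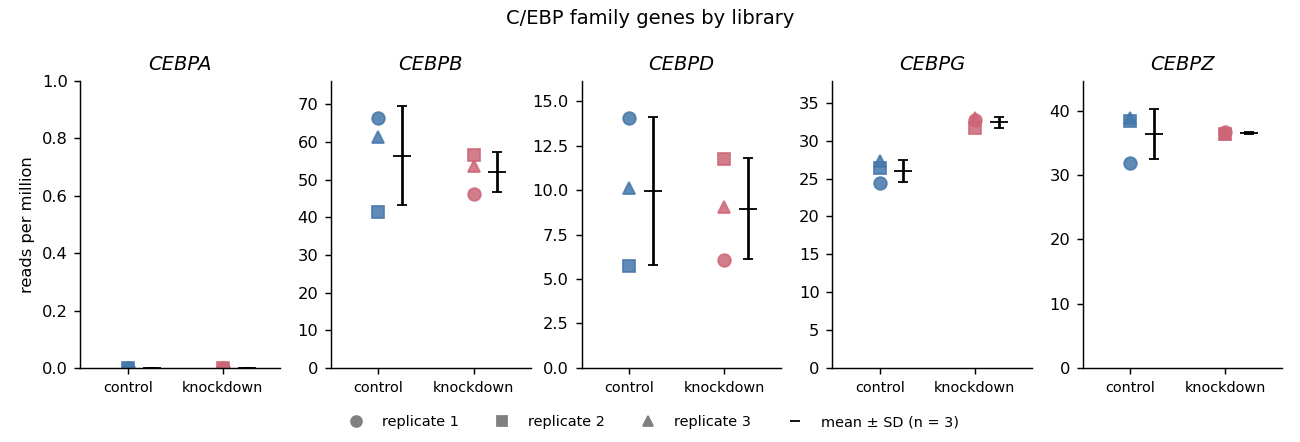
RPM (vertical axis, from 0, with its own scale for each gene) of the 5 C/EBP family genes in 3 control and 3 knockdown libraries. Marker shape gives the replicate number, and the bars are the mean ± SD. CEBPG is the gene whose 3 knockdown libraries (31.6 to 33.0) sit above its 3 controls (24.5 to 27.3), CEBPA is at 0, and the others overlap.

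The targeted RNA was checked first. Levels of sin-lncRNA in RPM (reads of a gene scaled to the deposited library size) were 3.70, 4.73 and 4.09 in controls and 0.493, 0.640 and 0.534 in knockdowns. Every knockdown library lay below every control, and sin-lncRNA fell by 2.86 on the log2 scale (SE 0.18, adjusted p = 7.9e-07). Reads in genes ranged from 30271192 to 50913672 in controls and from 22117324 to 27882280 in knockdowns, so every knockdown library was shallower. A count of 0 reads allows up to 3 reads, or 0.0596 to 0.134 RPM depending on the library, and these floors cover counting error only. All 10 fibroblast markers had reads. Their summed level was 17016 to 19012 RPM in controls and 13071 to 14186 RPM in knockdowns. Of the 10, 5 were lower in the knockdown with groups that did not overlap (COL1A1, COL1A2, VIM, PDGFRB and DCN), 3 were higher (COL3A1, THY1 and LUM) and 2 overlapped. Markers of macrophages and other blood cells summed to 0.448 to 1.67 RPM over all libraries with 1 of 7 at 0, of epithelium to 4.20 to 6.67 RPM in controls and 2.02 to 2.74 RPM in knockdowns with 1 of 5 at 0 and mostly KRT19, and of endothelium to 1.70 to 1.90 RPM in controls and 2.29 to 2.71 RPM in knockdowns over the 3 of 4 listed, mostly VWF. Adipocyte and hepatocyte markers stayed at or under 0.342 RPM. The part of these marker differences in the results below was not tested. In bulk RNA, fewer cells expressing a gene and less RNA per cell cannot be told apart.

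CEBPG encodes C/EBP gamma, a short family member without a transactivation domain of its own that works as a partner, above all of ATF4 in the amino acid stress response. The gene (ENSG00000153879.4) lies on the plus strand of chromosome 19 at chr19:33864236-33873592 in hg19, the build of the deposited table, and overlaps no other listed gene. It had reads of 833, 792 and 1373 in controls and 732, 741 and 925 in knockdowns, which is 24.5, 26.4 and 27.3 RPM against 32.8, 31.6 and 33.0 RPM. The lowest knockdown library was above the highest control library, and the libraries within each group were close. The means were 26.0 ± 1.44 RPM in controls and 32.5 ± 0.723 RPM in knockdowns (SD, n = 3). The log2 fold change was 0.32 (SE 0.06, 95% interval 0.19 to 0.45, adjusted p = 0.0015). The exact permutation p (two-sided) was 0.1, which is the lowest value possible for groups of 3. In all 23 other fits CEBPG was called higher, with log2 fold changes from 0.27 to 0.37 and adjusted p from 7.5e-05 to 0.012. These fits reuse the same libraries, so they are not independent. The fit with TMM scaling of library sizes nearly repeats the reported fit, at 0.32 in both. The lowest adjusted p came from the fit with no filter on low values.

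The start region of CEBPG is shown because it holds the composite C/EBP-ATF response element core TGATGNAA, the kind of site that ATF4 binds with a C/EBP partner. RefSeq (GRCh38.p14) gives CEBPG a pair of start sites. The stretch below is the part of intron 1 just before the second of them, chr19:33373896-33374112 on the plus strand, and the capitals mark the element core, whose first base lies at position -42 from that start.

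CEBPG intron 1: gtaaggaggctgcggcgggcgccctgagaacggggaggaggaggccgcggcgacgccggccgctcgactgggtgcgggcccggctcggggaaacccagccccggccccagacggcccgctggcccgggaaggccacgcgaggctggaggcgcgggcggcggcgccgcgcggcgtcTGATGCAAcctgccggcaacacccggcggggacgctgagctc

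Among 35097 RefSeq promoter windows of 300 bases (250 before to 50 after each start), searched on both strands, 3.62% held TGATGNAA. The other window of CEBPG held CCAAT letters on the minus strand at -85 and -24, and CCAAT is in 34.6% of windows. These matches are descriptions of letters, not of bound sites. Among the gene lists described further on, TGATGNAA was in a window of 6 of the 18 stress genes that had one, in that of ATF3 among 16 bZIP partners and in that of G6PC1 among 13 adipocyte and liver genes, with none in the 27 regulators, 22 secretory genes and 19 nucleolar genes that had windows. They are set out here beside that of CEBPG to show how the central N and the flanks vary, each with the core in capitals.

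ATF3, chr1:212565207-212565232 plus strand: aggtcaggaTGATGGAAggctgtcat
ASNS, chr7:97872460-97872485 minus strand: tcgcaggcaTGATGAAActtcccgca
CHAC1, chr15:40953253-40953278 minus strand: tggcaggagTGATGCAAcggcagggg
AARS1, chr16:70289677-70289702 plus strand: taacttggcTGATGCAActgcgagaa
SLC7A1, chr13:29595665-29595690 minus strand: gcgcactgcTGATGAAAcctggcgcc
GARS1, chr7:30594836-30594861 minus strand: ctcggagcaTGATGAAAtcgccgcgt
SLC3A2, chr11:62881727-62881748 minus strand: ggagcTGATGTAAggagtcctg
G6PC1, chr17:42900653-42900678 minus strand: ccagtaggtTGATGCAAacatgttca

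Genes with this core did not move in 1 direction beside CEBPG. ATF3, a stress-induced bZIP factor, rose from 3.64, 3.63 and 3.99 RPM in controls to 11.7, 13.4 and 12.2 RPM in knockdowns. CHAC1, a glutathione-degrading enzyme, and AARS1, the alanyl-tRNA ligase, fell by 0.63 and 0.44 on the log2 scale (adjusted p = 0.00053 and 4.1e-05). ASNS, which makes asparagine, SLC3A2 and SLC7A1, which carry amino acids, and GARS1, the glycyl-tRNA ligase, had log2 fold changes of 0.12, -0.07, -0.11 and -0.05 and were not called. G6PC1 had no reads.

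CEBPB was the most abundant member per length. It encodes C/EBP beta from a single exon on the plus strand of chromosome 20 (ENSG00000172216.4, chr20:48807376-48809212 in hg19), with no other listed gene overlapping it. Its counted reads were 2256, 1244 and 3087 in controls, and those in knockdowns were 1031, 1325 and 1505, or 66.3, 41.4 and 61.3 RPM against 46.2, 56.6 and 53.6 RPM. Control replicate 2 was the lowest of all 6 libraries and control replicates 1 and 3 the highest, so the knockdown libraries lay between the controls. Means were 56.3 ± 13.1 RPM in controls and 52.1 ± 5.33 RPM in knockdowns (SD, n = 3). The log2 fold change was -0.09 (SE 0.14, 95% interval -0.41 to 0.23, adjusted p = 0.66; exact permutation p = 0.7). The interval holds changes from 0.754-fold to 1.17-fold, so a larger fall or rise of CEBPB RNA lay outside it and smaller ones were not detectable at this spread.

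CEBPB was called in 2 of the 23 other fits, in opposite directions. Without control replicate 2, CEBPB was lower in the knockdown by a log2 fold change of -0.30 (adjusted p = 0.0099), while without control replicate 1 the estimate was 0.04 (adjusted p = 0.83). The SD of the log2 values of CEBPB among controls, 0.36, was larger than that of 99.6% of the 2461 genes within 0.5 of its mean level on the log2 scale. When a per-library trend on transcript GC content and length was removed, the log2 values became 5.72, 5.53 and 5.76 in controls and 5.84, 5.77 and 5.84 in knockdowns. All 3 knockdown libraries were then above the controls, and the log2 fold change was 0.15 (SE 0.06, adjusted p = 0.053), or 0.15 with an adjusted p of 0.036 when a replicate block was added. The direction of CEBPB therefore differed with the treatment of GC content.

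**Figure D2:**
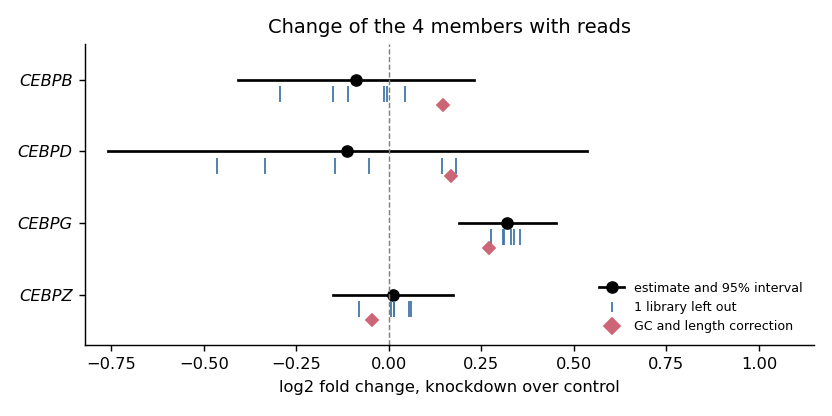
Log2 fold change, knockdown over control (horizontal axis), of the 4 members with reads. Black points and lines are the estimate and its 95% interval, blue ticks the 6 fits that each leave out 1 library, and red diamonds the fit after GC and length correction. The ticks and the diamond of CEBPG stay above 0, while those of CEBPB, CEBPD and CEBPZ fall on both sides of 0.

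A 29-base stretch of the CEBPB promoter is shown for the partial cAMP response element TGACG, the letters through which CREB and ATF factors are known to act on this gene. The capitals mark it, with its first base at -57 from the second of the RefSeq starts. TGACG was in 24.5% of all windows.

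CEBPB, chr20:50190761-50190789 in GRCh38.p14, plus strand: gaggggccggcgTGACGcagcggttgcta

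The same window held TATAAA at -29, a motif found in 11.5% of windows, and CCAAT at -245. The palindrome TTGCGCAA, the ideal C/EBP site, was in 0.151% of all windows and in no window of the 4 members that had one.

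On chromosome 20 of the deposited table, sin-lncRNA (listed as RP4-530I15.6, ENSG00000234693.1, chr20:49262008-49278812, plus strand) starts 452795 bases after the end of CEBPB. Wholly between CEBPB and sin-lncRNA lie 12 listed genes, not counting genes that reach only partly into the interval. Of the 12, 1 is protein-coding. This is PTPN1, a tyrosine phosphatase, at 131 ± 2.33 RPM in controls and 116 ± 1.92 RPM in knockdowns (log2 fold change -0.17, adjusted p = 0.0059). On the other side of CEBPB the nearest protein-coding gene, PEDS1 (listed as TMEM189), a plasmalogen-synthesis enzyme, went from 37.2 ± 1.54 RPM to 43.8 ± 1.69 RPM (log2 fold change 0.23, adjusted p = 0.0060). The neighbours on either side of CEBPB thus changed in opposite directions, each with groups that did not overlap. Groups did not overlap for 51.1% of all genes tested, with the knockdown higher for 22.8% and lower for 28.3%.

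CEBPD encodes C/EBP delta, a factor that rises early in acute phase and fat cell responses. The gene is a single exon on the minus strand of chromosome 8 (ENSG00000221869.4, chr8:48649471-48651648 in hg19) with no overlapping listed gene. It had 478, 172 and 509 reads in controls and 135, 275 and 254 in knockdowns, or 14.0, 5.73 and 10.1 RPM against 6.05, 11.7 and 9.05 RPM. Control replicate 2 was again the lowest library and control replicate 1 the highest, and the highest control was 2.45 times the lowest. Means were 9.96 ± 4.16 RPM and 8.95 ± 2.85 RPM (SD, n = 3), with a log2 fold change of -0.11 (SE 0.29, 95% interval -0.76 to 0.54, adjusted p = 0.79; exact permutation p = 0.8). The spread of CEBPD was larger than that of 99.9% of the 2192 genes of like level among controls and 99.6% among knockdowns, and its interval allows changes from 0.591-fold to 1.45-fold. The estimate turned to 0.18 without control replicate 1, to 0.14 without knockdown replicate 1 and to 0.17 after GC and length correction, none of them called (adjusted p = 0.64, 0.74 and 0.33).

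CEBPB and CEBPD shared an order of libraries within each group. Relative to its mean over the 6 libraries, CEBPB deviated on the log2 scale by 0.31, -0.37 and 0.20 in control replicates 1, 2 and 3 and by -0.21, 0.08 and 0.00 in knockdown replicates 1, 2 and 3. The deviations of CEBPD in the same order were 0.64, -0.65, 0.17, -0.57, 0.39 and 0.01. Both genes were high in control replicate 1 and low in control replicate 2 and knockdown replicate 1. Their transcripts are rich in G and C, at 66.2% for CEBPB and 70.0% for CEBPD, against 43.9% for CEBPG and 39.6% for CEBPZ. Over the 500 tested genes with a GC content of at least 65%, the median deviations were 0.34, -0.18, 0.17, -0.30, 0.09 and -0.08, and over the 2856 genes under 40% they were -0.07, -0.01, -0.00, 0.07, 0.01 and 0.02. The order within groups seen in both genes (control replicate 1 over 3 over 2, and knockdown replicate 2 over 3 over 1), which was picked after their values were seen, was present in 9.32% of all genes tested, in 1.16% of those under 40% GC and in 58.2% of those at 65% or more. CEBPG and CEBPZ did not show it, and the GC-rich AP-1 genes JUNB and JUND did. Other genes named in this report had it too, among them PTX3, JUN, DDIT4 and CHAC1, with GC contents of 47.5%, 56.7%, 58.1% and 62.6%. Whether GC content accounts for the spread of CEBPB and CEBPD was not tested.

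**Figure D3:**
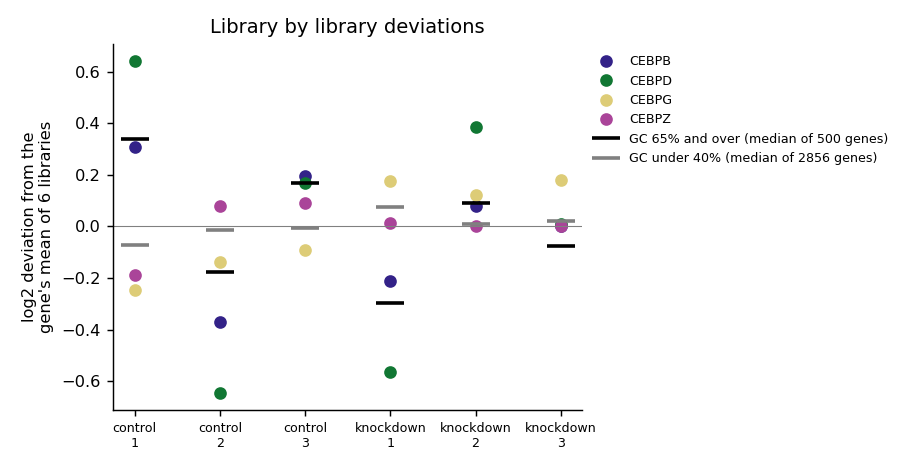
Log2 deviation of each gene from its mean over the 6 libraries (vertical axis) for CEBPB, CEBPD, CEBPG and CEBPZ in each library (horizontal axis), with dashes for the median of the 500 tested genes of at least 65% GC (black) and of the 2856 under 40% GC (grey). CEBPB and CEBPD lie on the same side of 0 as the black dash in all libraries but knockdown replicate 3, where they lie near 0, and CEBPG is below 0 in controls and above 0 in knockdowns.

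CEBPZ (ENSG00000115816.9, chr2:37428755-37458856 in hg19, minus strand) had 1086, 1154 and 1952 reads in controls and 820, 853 and 1021 in knockdowns. In RPM these were 31.9, 38.4 and 38.8 against 36.8, 36.4 and 36.4. The knockdown libraries were nearly equal and lay inside the range of the controls, of which replicate 1 was the lowest. Means were 36.4 ± 3.88 RPM and 36.5 ± 0.210 RPM (SD, n = 3), and the log2 fold change was 0.01 (SE 0.07, 95% interval -0.15 to 0.17, adjusted p = 0.92; exact permutation p = 1). This interval, 0.901-fold to 1.13-fold, was narrower than those of CEBPB and CEBPD. Without control replicate 1 the log2 fold change was -0.08 (adjusted p = 0.27). From start to end, introns included, CEBPZ shares 14582 bases with CEBPZOS (listed as AC007390.5), which encodes a small mitochondrial protein from the opposite strand. It also shares 3803 with an intronic RNA and 83 with NDUFAF7. Exons make up 3629 bases of CEBPZ and 4698 of CEBPZOS, and the overlap of exons alone was not measured. The strand setting of the counting is not given in the sources used here, so reads of CEBPZ and CEBPZOS cannot be told apart where they overlap. CEBPZOS was listed at 56.9 ± 0.748 RPM in controls and 51.7 ± 2.94 RPM in knockdowns (log2 fold change -0.14, adjusted p = 0.055), and it passed the threshold in 8 of the 23 other fits. Among these were GC and length correction (-0.21, adjusted p = 0.0014) and leaving out knockdown replicate 1 (-0.19, adjusted p = 0.016).

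CEBPA encodes C/EBP alpha, a factor of liver, fat and myeloid cell differentiation. It had 0 reads in all 6 libraries (ENSG00000245848.2, chr19:33790840-33793470 in hg19, minus strand). Its annotated span shares 2591 of its 2631 bases with other listed genes. A pseudogene entry on the same strand, AC008738.1, covers 2578 of them, and a pair of antisense genes cover 1235 and 662. These 3 genes had no reads either, and the 40 bases of CEBPA outside them are fewer than the 50 of a read. Whether reads that fit more than 1 gene were counted is not given in the sources used here, so the 0 cannot be read as absence of CEBPA RNA. CEBPA-AS1, the divergent RNA beside it, had 1, 1 and 3 reads in controls and 1, 0 and 0 in knockdowns, all at or under the floor of 3 reads. CEBPE, the myeloid family member that is not among the 5, had 0 reads in all 6 libraries and overlaps no other listed gene.

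Per length, the order of the members with reads was CEBPB, CEBPZ, CEBPG and CEBPD, and CEBPA has no place in it because its level could not be measured. On the RPKM scale (RPM per kilobase of exon, GENCODE 29 lengths) CEBPB had a level of 28.8 ± 6.72 in controls and 26.7 ± 2.73 in knockdowns. CEBPZ had 10.0 ± 1.07 and 10.1 ± 0.0579, CEBPG 5.90 ± 0.326 and 7.36 ± 0.164, and CEBPD 4.57 ± 1.91 and 4.11 ± 1.31 (SD, n = 3). Mean CEBPB was 4.88 times mean CEBPG in controls and 3.62 times in knockdowns. CEBPG and CEBPD were the neighbours whose ranges overlapped in controls, where CEBPG was higher in 2 of 3 libraries. In knockdowns CEBPG was higher in 3 of 3 libraries and the ranges were apart. The levels of CEBPB, of CEBPZ and of CEBPG with CEBPD were apart in both groups.

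Whether members changed by different amounts was tested on the difference of log2 values within each library, for all 6 pairs of tested members. CEBPG minus CEBPZ was -0.48 ± 0.08 in controls and -0.17 ± 0.03 in knockdowns (SD, n = 3), a shift of 0.31 with groups that did not overlap. Its exact permutation p was 0.1, the smallest this design allows, and 0.6 after adjustment over the 6 pairs. The shift was -0.41 for CEBPB minus CEBPG (exact p = 0.3), -0.43 for CEBPD minus CEBPG (exact p = 0.5), -0.10 for CEBPB minus CEBPZ (exact p = 0.8), -0.12 for CEBPD minus CEBPZ (exact p = 0.9) and 0.02 for CEBPB minus CEBPD (exact p = 0.9). Since 3 libraries against 3 cannot reach 0.05 here, these p-values say neither that members changed alike nor that they changed differently.

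The genes closest to each member in pattern were found by the root mean square difference of centred log2 values over the 6 libraries, among genes with a mean of at least 50 normalized reads. For CEBPG they were COLEC10 (0.012), MRFAP1L1 (0.015) and ELMOD2 (0.019), with log2 fold changes of 0.34, 0.32 and 0.29. CEBPB was closest to ENKD1 (0.045), CHST7 (0.047) and CHST12 (0.057), which share its high control replicate 1 and low control replicate 2. CEBPD was closest to ANTKMT (0.092), PPP1R16A (0.098) and the pseudogene FKBP1AP1 (0.109). CEBPZ was closest to a pseudogene listed without a symbol (ENSG00000226723, 0.019), to NUP54 (0.023) and to the pseudogene RPL22P16 (0.024). None of the genes closest to CEBPB, CEBPD or CEBPZ was called, with log2 fold changes from -0.23 for ANTKMT to 0.04 for RPL22P16. The measure includes the difference between the groups, so fold changes like that of the member follow from how these genes were chosen.

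Of 19 bZIP factors that pair with C/EBP proteins or share sites with them, 16 were tested, 4 rose and 4 fell. That is 50% called, against 41% of all genes tested (17.5% higher and 23.5% lower), and the median log2 fold change was -0.01 against -0.04 over all genes tested. ATF4, the stress factor that pairs with C/EBP gamma, had 166, 172 and 175 RPM in controls and 200.4, 211 and 205 RPM in knockdowns. Its knockdown libraries lay above all controls (log2 fold change 0.26, adjusted p = 0.00054), as those of CEBPG did. DDIT3, known as CHOP, a C/EBP-type protein that forms pairs with impaired binding to usual C/EBP sites, had 17.2 ± 1.23 RPM in controls (SD, n = 3) and 10.8, 14.0 and 11.3 RPM in the knockdown libraries. Each knockdown library was below each control (log2 fold change -0.53, adjusted p = 0.0019). ATF3, set out above, rose most (log2 fold change 1.72, adjusted p = 3.9e-07), followed by the AP-1 subunit FOSL2 (0.63, adjusted p = 1.4e-05). ATF5, a relative of ATF4, and JUN, the AP-1 core subunit, fell by 0.50 and 0.44 (adjusted p = 0.00049 and 0.0052). JUN was not called in 1 of the 23 other fits (adjusted p = 0.052).

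Of 30 genes whose products act on C/EBP proteins or their transcription, all tested, 8 rose and 9 fell, with a median of -0.03. This is 56.7% called, beside 41% of all genes tested (17.5% higher and 23.5% lower). FBXW7, a ubiquitin ligase part that marks phosphorylated C/EBP proteins for breakdown, rose from 15.8 ± 0.453 to 24.4 ± 0.503 RPM (SD, n = 3; log2 fold change 0.63, adjusted p = 1.7e-05). GSK3B, a kinase that phosphorylates C/EBP alpha and beta, and STAT3, which activates CEBPD transcription, rose by 0.34 and 0.41 (adjusted p = 0.00024 and 1.7e-05). The kinases CDK9 and CDK2 fell by 0.80 and 0.70 (adjusted p = 3.9e-06 and 4.4e-05). Of the Tribbles adaptors, TRIB3 fell by 0.55 (adjusted p = 0.00012) and TRIB2 rose by 0.27 (adjusted p = 0.0039). TRIB1, which brings the ligase COP1 to C/EBP alpha and beta, rose by 0.19 (adjusted p = 0.012). TRIB1 was not called without knockdown replicate 2 (0.15, adjusted p = 0.052) or under eBayes without a trend (0.19, adjusted p = 0.066).

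**Figure D4:**
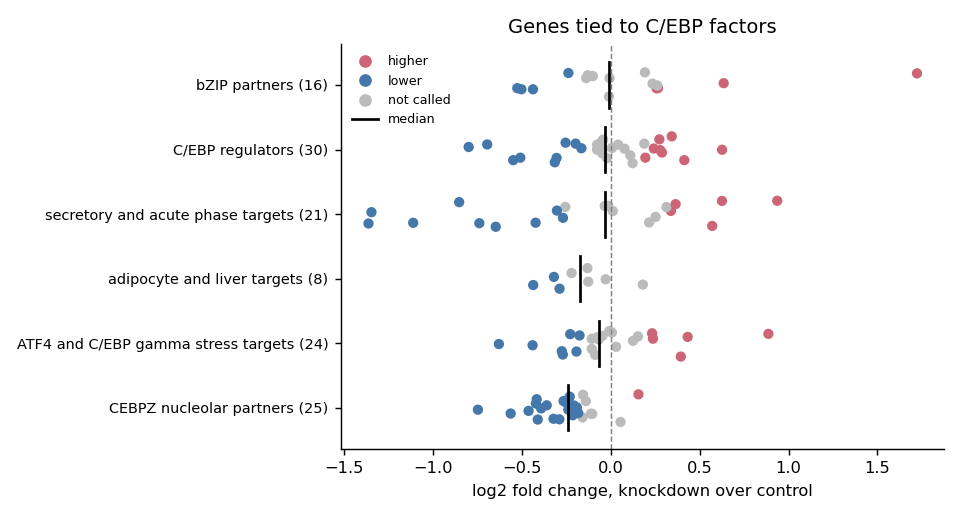
Log2 fold change, knockdown over control (horizontal axis), of each tested gene in 6 lists of genes tied to C/EBP factors, with the number tested in brackets. Red points rose, blue points fell and grey points were not called, vertical offsets are for legibility, and the black line is the median. In the nucleolar list 18 of 25 points are blue and 1 is red, the adipocyte and liver list has no red point, and the other 4 lists hold both colours.

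Among secretory and acute phase genes with known C/EBP sites or a known need for C/EBP beta, 21 of 32 were tested, 5 rose and 9 fell, with a median of -0.04. The share called was 66.7%, beside 41% of all genes tested (17.5% higher and 23.5% lower). A further 6 had no reads, among them SAA1, SAA2, S100A8 and S100A9. IL6, the cytokine after which C/EBP beta was first named, stood at 1.85, 2.10 and 1.85 RPM in controls and 2.02, 2.99 and 1.99 RPM in knockdowns, with overlapping groups (log2 fold change 0.25, adjusted p = 0.29). Without knockdown replicate 2, its highest library, the log2 fold change of IL6 was 0.061 (adjusted p = 0.80). IL1B, a cytokine of the interleukin-1 pathway, fell from 18.7 ± 2.91 to 11.1 ± 0.0626 RPM (SD, n = 3; log2 fold change -0.74, adjusted p = 0.00023). IL1A fell by 0.42 (adjusted p = 0.026) and was not called without control replicate 2 (-0.31, adjusted p = 0.11) or knockdown replicate 3 (-0.37, adjusted p = 0.085). The neutrophil chemokine CXCL8 and the monocyte chemokine CCL2 rose by 0.34 and 0.36 (adjusted p = 0.013 and 0.0099). CXCL8 was not called in 2 of the 23 other fits and CCL2 in 1, with highest adjusted p of 0.065 and 0.070. PTX3, an acute phase pentraxin, and OSMR, the oncostatin M receptor, rose by 0.62 and 0.57, and the protease inhibitor SERPINB2 fell by 1.11 (adjusted p = 2.9e-05, 2.3e-06 and 4.2e-05). The chemokine CXCL5 fell by 0.85 (adjusted p = 0.037), with overlapping groups, and was not called without control replicate 2 (-0.78), control replicate 3 (-0.68), knockdown replicate 1 (-0.55) or knockdown replicate 3 (-0.91), with adjusted p from 0.071 to 0.15.

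Of 20 adipocyte and liver genes known to depend on C/EBP alpha, beta or delta, 8 were tested, 0 rose and 3 fell, with a median of -0.18. The share called, 37.5%, was near the 41% of all genes tested (17.5% higher and 23.5% lower). At an adjusted p above the threshold the other 5 ranged from -0.22 for INSR to 0.18 for KLF4. The 3 that fell were the lipid genes FASN, LPIN1 and SCD (log2 fold changes of -0.44, -0.32 and -0.29, adjusted p = 0.0030, 0.0022 and 0.00088). FASN, with a GC content of 65.3%, had the same order of libraries within groups as CEBPB. Its log2 fold change was -0.23 with GC alone corrected (adjusted p = 0.00039) and -0.28 without control replicate 1 and knockdown replicate 1 (adjusted p = 0.017).

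The amino acid stress list was chosen for genes with elements known to be bound by ATF4 with C/EBP gamma or beta. The core TGATGNAA was found in a window of 6 of the 18 genes that had one. All 24 genes were tested, 5 rose and 7 fell, with a median of -0.07. The share called was 50%, beside 41% of all genes tested (17.5% higher and 23.5% lower). Without control replicate 3 or knockdown replicate 3 the counts were 4 and 4. STC2, a secreted glycoprotein, rose from 109, 120 and 119 RPM to 206, 221 and 214 RPM (log2 fold change 0.89, adjusted p = 5.0e-07). PSAT1, a serine-synthesis enzyme, rose by 0.39 (adjusted p = 0.00035), and NUPR1, a small chromatin protein, fell by 0.28 (adjusted p = 0.0091). DDIT4, an inhibitor of mTOR signalling, rose by 0.43 (adjusted p = 0.015), with overlapping groups. It was not called without control replicate 3 (0.42, adjusted p = 0.053), knockdown replicate 2 (0.33, adjusted p = 0.063) or knockdown replicate 3 (0.42, adjusted p = 0.059), nor with a replicate block (0.43, adjusted p = 0.057).

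Of 25 nucleolar ribosome assembly factors listed with CEBPZ, all tested, 1 rose and 18 fell, with a median of -0.24. The share called was 76%, beside 41% of all genes tested (17.5% higher and 23.5% lower). Most of the list acts on the large subunit, but NOC4L and NOP14, both among those that fell, are known for the small one. RRP1B, an assembly factor of the nucleolus, fell by 0.75, NOP16 by 0.56 and BOP1 by 0.46 (adjusted p = 2.4e-06, 0.00093 and 0.0061). BOP1 was not called in 1 of the 20 other fits that held it (adjusted p = 0.051). MAK16 rose by 0.15 (adjusted p = 0.041) and was not called with any 1 of the 6 libraries left out, at log2 fold changes from 0.12 to 0.18, nor with a replicate block (0.15, adjusted p = 0.098). The number that fell without 1 library was lowest without control replicate 3, at 13, and highest when control replicate 1 was omitted, at 20. CEBPZ itself, at a log2 fold change of 0.01, was not called.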

How the data were processed

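PolyA RNA of 6 libraries was read as single 50 bp reads, per the labels' protocols. Bowtie2, featureCounts and hg19 are named in the submitters' processing notes. The authors deposited 1 table of log2 values, named as normalized counts. Their form was worked out from the values: log2 of RPM (reads scaled to library size) with an offset of 0.5 reads, which returned whole reads for 100% of values (tolerance 1e-06). The library sizes behind them were the read totals times factors of 0.989 to 1.009. Each column was matched to a sample by replicate number and siRNA name.

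The deposited log2 values were fitted with limma 3.58.1 (R 4.3.3, eBayes with an intensity trend, two-sided) over 19048 genes with a mean of at least 10 normalized reads, with Benjamini-Hochberg adjusted p and a threshold of 0.05. When 200 of the 19048 genes were changed in simulated counts for knockdown against control, 64% were recovered at a log2 change of 0.5 and 89% at 1. Of the calls, 5.56% were unchanged genes. The simulation gave all genes the same spread beyond counting and no GC trend, and changed far fewer genes than the 7805 called in the data. Its rates therefore do not describe CEBPB and CEBPD, whose spread among controls was larger than that of most genes of like level. Replicates differed by more than sampling noise (chi-square per degree of freedom 2.87 to 11.0), so each library counted once. GC content and length came from GENCODE 29 transcripts, and promoter windows from RefSeq (GRCh38.p14), which held 6 windows for 4 of the 5 members. No coordinates were converted.

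The members and the 6 gene lists (bZIP partners, C/EBP regulators, secretory and acute phase targets, adipocyte and liver targets, ATF4 and C/EBP gamma stress targets, CEBPZ nucleolar partners) were chosen with earlier results of these data known. Named genes were the members, sin-lncRNA, DDIT3, CEBPE, ATF4, TRIB1, IL6, CXCL8, IL1A, IL1B, overlapping or divergent RNAs, and from each list up to 3 largest rises and 3 largest falls among called genes with a mean of at least 50 normalized reads. The 3 genes nearest each member in pattern and the protein-coding neighbours of CEBPB were also named. JUNB, JUND, TRIB2, the secretory genes with 0 reads, INSR, KLF4 and the genes whose windows held the element were named after their values were seen. In all, 23 other fits were run, 2 of them (without control and knockdown replicate 1, and GC correction without length) added after seeing the data.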

Additional observations from a re-analysis of the deposited data

How the results depend on the processing

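Of the members, CEBPG kept its direction and its call in all 23 other fits. With the replicate number as a block, 1 member was called, and the count of all genes changed was 6454. The labels do not say whether the numbers pair the samples. Deviations of same-numbered libraries correlated at -0.15, -0.18 and 0.07, so pairing was not evident, but these values cannot exclude it. The block is therefore a check of the fit, and with the GC and length correction it called 2 members, CEBPB (0.15, adjusted p = 0.036) beside CEBPG. Leaving out 1 library gave 1 to 2 members called, the second being CEBPB without control replicate 2, lower by a log2 fold change of -0.30. Log2 fold changes with 1 library left out ran from -0.30 to 0.04 for CEBPB, from -0.46 to 0.18 for CEBPD and from -0.080 to 0.061 for CEBPZ. After GC and length correction, with or without the block, they were 0.15, 0.17 and -0.044. With GC alone corrected, an alternative chosen after seeing the data, they were 0.13, 0.17 and -0.037, and without control replicate 1 and knockdown replicate 1, also chosen then, 0.13, 0.44 and -0.085. Thinning all libraries to the smallest total gave -0.021 for CEBPZ. With 1 library left out, the shifts between members ran from -0.15 to 0.18 for CEBPB minus CEBPD, from -0.35 to 0.12 for CEBPB minus CEBPZ and from -0.52 to 0.26 for CEBPD minus CEBPZ. The other 3 pairs kept their sign in the 11 settings run for pairs. Under eBayes without a trend, 6 stress genes and 11 nucleolar genes were called, against 12 and 19. For these changes the cause was not tested. With no filter on low values, all genes had a median of 0.60 on the log2 scale, against -0.04 with it. A gene without reads sits at the offset of 0.5 reads scaled to library size, and every knockdown library was shallower. CEBPA, with 0 reads, stood at -6.09, -5.91 and -6.65 in controls and at -5.48, -5.55 and -5.81 in knockdowns. The 0.60 is therefore no measure of a rise in RNA. Of the 37 named genes that are no members and were tested, 9 of those called as reported were not called in 1 or more other fits, and 0 changed sign. BOP1, with no GENCODE 29 match, could not be fitted in the 3 fits with a GC correction. CEBPD had 135 to 509 reads a library, the fewest of the 4 tested members.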
